A study of Homo sapiens with 12 samples.

Results

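The genes described are 43 metalloproteinases and metalloproteinase inhibitors: 17 matrix metalloproteinases (MMPs, of which 11 are secreted and 6 are held at the cell membrane), 4 tissue inhibitors of metalloproteinases (TIMPs), 9 ADAMs and 13 ADAMTSs. They were taken by symbol from a table of 29094 RefSeq transcript rows, in which each of the 43 had at least 1 row. A total of 26 passed the filter on low counts, among 13424 rows that did, and the other 17 are listed further on with their counts. The libraries were made from MCF10AT, a mammary epithelial cell line that carries HRasG12V. Cells expressed a non-silencing control, NS1 or NS2, or an EP300 shRNA, EP300 KD1 or EP300 KD2, from a lentivirus and were all selected with puromycin. Each group had 3 RNA-seq libraries, and EP300 KD1 was compared with NS1 and EP300 KD2 with NS2, as the numbers in their names pair them. The labels give neither the difference between the controls nor whether a group was a pool or a clone.

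Metalloproteinases cut proteins with a zinc ion in the active site. MMPs cut the extracellular matrix and other secreted proteins, ADAMs release the outer parts of membrane proteins such as growth factors and receptors, and ADAMTSs cut proteoglycans and procollagens. TIMPs bind the active site and block it, with TIMP3 the widest in reach because it also inhibits several ADAMs and ADAMTSs. EP300 is a histone acetyltransferase and coactivator.

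Promoter sequences were available from RefSeq (GRCh38.p14) for 24 members, in 25 windows of 250 bases before the annotated start. The 5 stretches printed here are the 150 bases before the start of the 3 members that hold the AP-1 type motif TGANTCA (N any base, both strands searched) and of the 2 inhibitors with the largest changes. AP-1 is a transcription factor dimer of FOS and JUN proteins. Capitals mark the motif, and each sequence reads 5′ to 3′ on the strand of its gene.
MMP7 promoter, chr11:102530748-102530897 (minus strand): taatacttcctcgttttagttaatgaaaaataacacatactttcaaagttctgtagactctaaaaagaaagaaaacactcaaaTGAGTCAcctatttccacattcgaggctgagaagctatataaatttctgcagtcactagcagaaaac
MMP10 promoter, chr11:102780629-102780778 (minus strand): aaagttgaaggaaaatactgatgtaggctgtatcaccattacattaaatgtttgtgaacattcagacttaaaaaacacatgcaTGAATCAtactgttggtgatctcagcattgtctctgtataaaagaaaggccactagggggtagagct
ADAMTS12 promoter, chr5:33891991-33892140 (minus strand): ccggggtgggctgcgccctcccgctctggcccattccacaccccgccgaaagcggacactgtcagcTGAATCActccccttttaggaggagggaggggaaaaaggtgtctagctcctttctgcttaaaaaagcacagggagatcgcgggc
TIMP1 promoter, chrX:47582286-47582435 (plus strand): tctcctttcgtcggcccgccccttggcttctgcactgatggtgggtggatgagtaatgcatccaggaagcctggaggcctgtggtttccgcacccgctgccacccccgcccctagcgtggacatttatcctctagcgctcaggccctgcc
TIMP3 promoter, chr22:32801555-32801704 (plus strand): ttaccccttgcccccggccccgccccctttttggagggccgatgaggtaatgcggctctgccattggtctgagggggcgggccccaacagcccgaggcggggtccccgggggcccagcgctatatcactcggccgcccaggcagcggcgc
The motif lay 67 bases before the start of MMP7, 67 before that of MMP10 and 84 before that of ADAMTS12, against a presence in 6.59% of 34788 distinct windows of this length over all genes. No exact match was found in the windows of TIMP1 and TIMP3. Sites that differ from TGANTCA by a base, such as the tgagtaa in the TIMP1 stretch, were not searched for. The windows can therefore not be said to lack AP-1 sites, and members without a window were not searched. The MMP7 and MMP10 windows were poor in G and C (33.6% and 34.4%, with 3 and 2 CpG dinucleotides), where the median over all windows was 58% and 11. The TIMP1 window had 64.8% and 12 CpG, the TIMP3 window 72.4% and 26, and the ADAM19 window 76.4% and 21. The levels of the 3 motif holders, given in the next paragraphs, went different ways: MMP7 fell, ADAMTS12 rose and MMP10 was at the limit of detection.

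Library totals ranged from 31396653 to 45606950 counts, and 3 counts in a library correspond to 0.0662 to 0.0963 CPM (counts scaled to library size, with TMM factors). The level of EP300 (mean ± SD, n = 3) was 172 ± 5.11 CPM for NS1, 107 ± 0.884 CPM for EP300 KD1, 174 ± 8.14 CPM for NS2 and 95.8 ± 3.87 CPM for EP300 KD2. That is 62.4% and 55.0% of the matched control (log2 change -0.68 ± 0.0349 and -0.86 ± 0.0352, ± SE; adjusted p 2.6e-12 and 1.1e-13, edgeR quasi-likelihood test with Benjamini-Hochberg adjustment over all rows tested, used throughout). The 12 mammary epithelial markers were all detected, with a summed level of 7740 to 8010 CPM in NS1, 6600 to 6920 in EP300 KD1, 8740 to 8940 in NS2 and 5100 to 5220 in EP300 KD2. Summed fibroblast markers (11 genes) were at 87.1 to 90.6, 126 to 130, 63.2 to 69.6 and 63 to 65.7 CPM in the same order, with LUM, COL1A2 and COL3A1 at 0 in every library. The 12 leukocyte markers summed to 52.6 to 63.5, 67.8 to 75, 66.1 to 67.8 and 38.1 to 40.4 CPM, with MS4A1 and AIF1 among those at 0. The 6 endothelial markers summed to 28.8 to 32.9, 13.1 to 15.7, 38.6 to 40.6 and 6.4 to 7.04 CPM, with CLDN5 at 0. Single markers went different ways. The endothelial sum was mostly PECAM1 (group means 29.3, 9.67, 38.7 and 5.38 CPM). TEK rose with both hairpins (log2 change 4.08 and 1.89) and KDR with the first (0.71). Of 7 tested fibroblast markers, FBLN1 alone was called lower (-1.95 and -1.41), and DCN, COL1A1 and PDGFRA were higher with both hairpins. CD14 fell and CD68 rose with both. The part of these marker levels in the results was not tested. In such bulk RNA, fewer cells of a kind and less RNA per cell cannot be told apart. Whether the replicates were separate cultures is not in the labels, and the p-values therefore measure no more than library-to-library spread, which may be technical.

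With both EP300 hairpins the inhibitor TIMP1 rose and the inhibitor TIMP3 fell, MMP9 rose from near the limit of detection, MMP7 fell, and ADAM19, ADAMTS6 and ADAMTS4 rose, each by at least 2-fold. In EP300 KD1, 19 of the 26 tested members were called (73.1%), where 64.9% of all rows tested were. Of these, 13 were higher than in NS1 (50.0% of the members, 32.6% of all rows) and 6 were lower (23.1% and 32.3%). In EP300 KD2, 17 members were called (65.4%, against 57.8% of all rows), 8 of them higher than in NS2 (30.8% and 27.9%) and 9 lower (34.6% and 29.9%). The shares called were not far from those over all rows, in a data set in which small changes are detectable (common biological coefficient of variation 0.03). A change of at least 2-fold was called for 10 members in each comparison (38.5%), where 10.2% of all rows reached it in the first and 8.08% in the second. In the first, 8 members were at least 2-fold higher (30.8%, against 5.85% of all rows) and 2 lower (7.69% and 4.34%). In the second, 6 were higher (23.1% and 2.95%) and 4 lower (15.4% and 5.13%). The counts of higher members and of at least 2-fold changes include MMP9 and ADAMTS4 in both comparisons. These genes passed the filter through the EP300 KD1 libraries, where they were high. The shares that include them are therefore not to be read as an excess over all rows. The median absolute log2 change of the members was 0.76 and 0.56, against 0.24 and 0.2 over all rows. These medians also include MMP9 and ADAMTS4, and members of low counts whose changes have a large SE. They are likewise not to be read as an excess over all rows.

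The direction was shared by the hairpins for 13 members, 50.0% of those tested, beside 32.6% of all rows: 8 were higher with both (background 15.3%) and 5 lower with both (17.3%). These 8 were MMP9, TIMP1, ADAM8, ADAM19, ADAMTS4, ADAMTS6, ADAMTS9 and ADAMTS12, and the 5 were MMP2, MMP7, TIMP3, ADAMTS7 and ADAMTS14. MMP14, ADAM10 and ADAM12 were called in opposite directions, 11.5% of the tested members and near the 11.2% of all rows. At least 2-fold changes in the same direction with both hairpins were called for 7 members (26.9%), beside 5.01% of all rows. Of the 7, MMP9 and ADAMTS4 passed the filter through the EP300 KD1 libraries, where they were high. With only NS2 and EP300 KD2 in the fit, 21 members were tested and 6 were higher, without these genes, in place of 8. Over all rows of that fit, 3841 of 12980 were higher, a share near that of the members. The 7, and the 13 and the 8 higher with both that also hold MMP9 and ADAMTS4, are therefore not to be read against the shares of all rows.

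**Figure D1:**
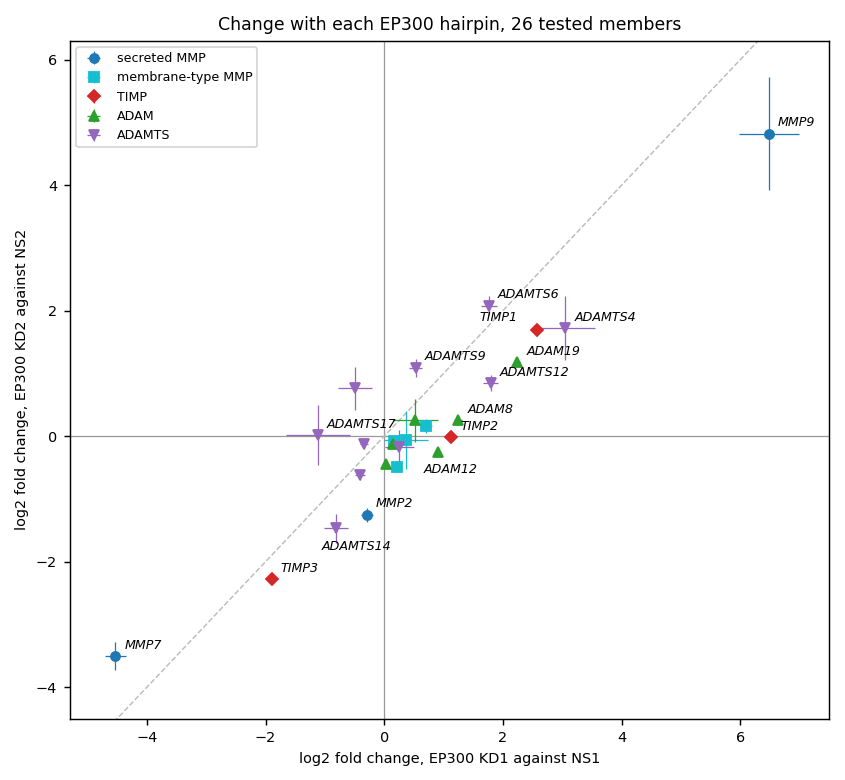
Log2 fold change of the 26 tested members in EP300 KD1 against NS1 (horizontal axis) and in EP300 KD2 against NS2 (vertical axis), with bars for the SE and the marker shape and colour for the kind of gene; the dashed line marks equal changes. MMP9 lies at the upper right (6.48 and 4.82) and MMP7 at the lower left (-4.53 and -3.50), while TIMP2 and ADAM12 lie to the right of the origin near or below 0 on the vertical axis.

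Of the secreted MMPs, only MMP2, MMP7 and MMP9 had counts enough to be tested, and each was called with both hairpins: MMP9 higher, MMP2 and MMP7 lower. MMP7, or matrilysin, is a small enzyme without the C-terminal hemopexin domain that is made by epithelial cells. It was at 7.88, 7.07 and 7.26 CPM in NS1 and at 0.193, 0.315 and 0.435 CPM in EP300 KD1. In NS2 it was at 1.86, 2.05 and 2.31 CPM and in EP300 KD2 at 0.214, 0.165 and 0.154 CPM. All shRNA libraries were below all control libraries, and the controls themselves stood apart, with every NS2 library below every NS1 library. MMP7 was 23-fold lower in EP300 KD1 (log2 change -4.53 ± 0.174; adjusted p 3.44e-14) and 11.3-fold lower in EP300 KD2 (-3.50 ± 0.219; 6.62e-11), and 3.57-fold lower in NS2 than in NS1 (-1.83 ± 0.13; 5.86e-09). Against both controls pooled the log2 changes of MMP7 were -3.608 and -4.415.

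MMP9, or gelatinase B, cuts denatured collagen and type IV collagen. Its counts over the 3 libraries of a group were 3 in NS1, 273 in EP300 KD1, 1 in NS2 and 43 in EP300 KD2. The levels were 2.09, 3.76 and 2.24 CPM in EP300 KD1 and 0.357, 0.604 and 0.185 CPM in EP300 KD2, with 0.0584, 0 and 0.0221 CPM in NS1 and 0.0316, 0 and 0 CPM in NS2. Every shRNA library was above the level of 3 counts and every control library below it. From the summed counts the ratio to the control was 102 (95% interval 34.4 to 495, counting error only) for EP300 KD1 and 37.8 (6.43 to 1530) for EP300 KD2, with adjusted p 1.25e-09 and 0.000133. The difference between these changes did not pass the test (adjusted p 0.63). MMP9 shares 430 exon bases with SLC12A5-AS1 on the opposite strand, and since the sources used here do not give the strand setting of the counting, reads from the antisense gene cannot be told apart from its own. With only NS2 and EP300 KD2 in the fit, MMP9 did not pass the filter. Both of its comparisons were thus tested only because of its level in EP300 KD1. The call in the first is that of a gene kept for being high in the same group.

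MMP2, or gelatinase A, was at 6.59, 8.27 and 7.22 CPM in NS1 and 6, 6.19 and 5.86 CPM in EP300 KD1. It was at 4.71, 4.85 and 4.67 CPM in NS2 and 2.07, 1.73 and 2.19 CPM in EP300 KD2. The groups did not overlap within either pair, but NS2 lay below EP300 KD1 as well. MMP2 fell by 0.29 ± 0.0954 on the log2 scale in EP300 KD1 (adjusted p 0.0129) and by 1.25 ± 0.112 in EP300 KD2 (adjusted p 1.36e-08). The first call was lost without NS1 replicate 2 (log2 change -0.199, adjusted p 0.0866) and against both controls pooled (0.028, adjusted p 0.786).

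Of the membrane-type MMPs, MMP14, MMP15, MMP17 and MMP25 were tested, and none was called in the same direction with both hairpins. MMP14, also called MT1-MMP, is the membrane-bound collagenase that activates pro-MMP2 together with TIMP2. It was at 181, 170 and 173 CPM in NS1 and 201, 208 and 197 CPM in EP300 KD1, with every shRNA library higher. It was at 177, 187 and 184 CPM in NS2 and 131, 128 and 127 CPM in EP300 KD2, with every shRNA library lower. MMP14 rose by 0.21 ± 0.0297 on the log2 scale with the first hairpin (adjusted p 4.19e-06) and fell by 0.50 ± 0.0305 with the second (4.03e-11). The difference between the changes, second minus first, was -0.72 ± 0.0426 (adjusted p 8.96e-11).

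MMP17, which is anchored by glycosylphosphatidylinositol, was at 3.76, 3.84 and 4.28 CPM in NS1 and 5.97, 7.25 and 6.1 CPM in EP300 KD1. It rose by 0.70 ± 0.101 on the log2 scale (adjusted p 6.5e-06). In EP300 KD2 the log2 change was 0.16 ± 0.105 (adjusted p 0.205), with 4.17, 3.58 and 3.84 CPM in NS2 against 4.31, 4.53 and 4.11 CPM. MMP15 (7.39 to 8.32 CPM as group means) and MMP25 passed in neither comparison, with adjusted p from 0.109 to 0.927. MMP25 had at most 22 counts in a library and shares 725 exon bases with its antisense gene MMP25-AS1.

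Of the 3 tested TIMPs, TIMP1 rose with both hairpins, TIMP3 fell with both, and TIMP2 rose with the first. TIMP1 (chrX:47582436-47586789, GRCh38), a secreted inhibitor that binds pro-MMP9, was the most abundant member per transcript length in every group, at 438, 2610, 469 and 1520 CPM per kb in NS1, EP300 KD1, NS2 and EP300 KD2. It was at 389, 384 and 399 CPM in NS1 and 2200, 2510 and 2270 CPM in EP300 KD1. In the second pair it was at 404, 424 and 427 CPM in NS2 and 1340, 1350 and 1370 CPM in EP300 KD2. All shRNA libraries were above all control libraries. TIMP1 rose 5.95-fold with the first hairpin (log2 change 2.57 ± 0.0375; adjusted p 2.31e-20) and 3.23-fold with the second (1.69 ± 0.0367; 9.25e-18), and the rise was smaller with the second (difference -0.88 ± 0.0508; 5.68e-11).

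TIMP3 (chr22:32801705-32863041), the inhibitor that is bound to the matrix, was at 144, 139 and 138 CPM in NS1 and 37.9, 36.6 and 38.1 CPM in EP300 KD1. It was at 151, 160 and 153 CPM in NS2 and 32.4, 31.1 and 31.9 CPM in EP300 KD2. The levels of the 6 shRNA libraries were close to each other and well below those of all 6 controls. TIMP3 fell 3.73-fold with the first hairpin (log2 change -1.90 ± 0.0321; adjusted p 1.45e-19) and 4.86-fold with the second (-2.28 ± 0.0324; 2.9e-20). Per transcript length TIMP3 went from 30.4 to 8.15 CPM per kb in the first pair and from 33.5 to 6.9 in the second.

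TIMP2, which inhibits MMP2 and also takes part in its activation by MMP14, was called in the first comparison alone. It was at 49.9, 45.7 and 48.3 CPM in NS1 and 105, 103 and 107 CPM in EP300 KD1, and the log2 change was 1.13 ± 0.035 (2.19-fold; adjusted p 1.26e-15). In NS2 it was at 42, 43.2 and 44.8 CPM and in EP300 KD2 at 44.2, 43.2 and 41.4 CPM, with overlapping groups and a log2 change of -0.01 ± 0.0389 (adjusted p 0.823). The difference between the changes was -1.14 ± 0.0524 (adjusted p 2.22e-12). TIMP4 was not tested, with at most 2 counts in a library.

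**Figure D2:**
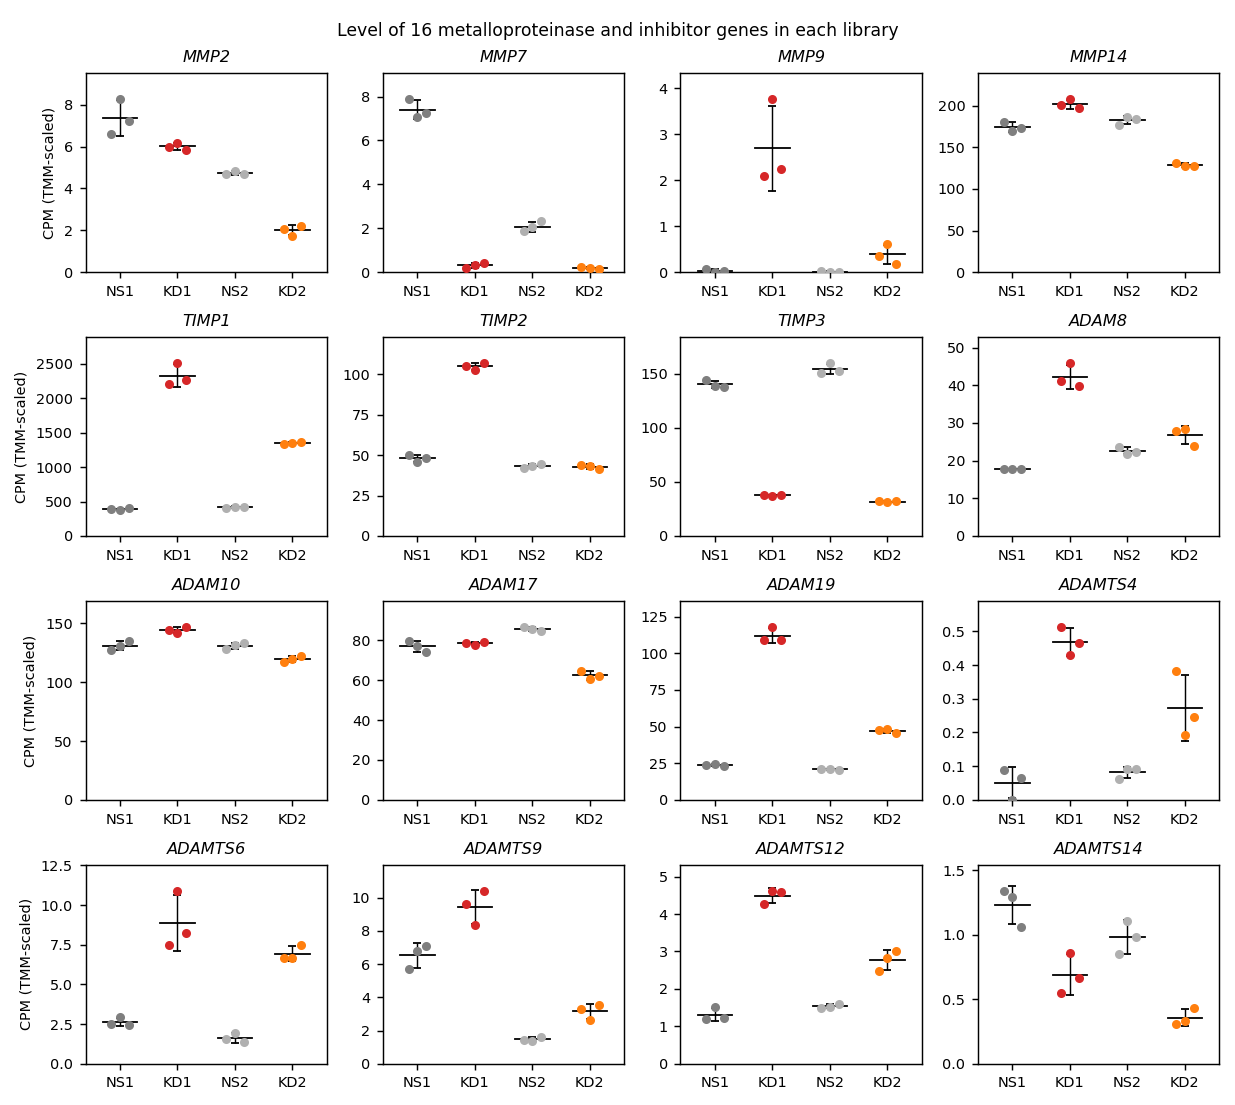
TMM-scaled CPM (vertical axes, starting at 0) of 16 members in each of the 12 libraries, with points for libraries, a line for the mean and a bar for the SD of the 3 libraries in NS1, EP300 KD1, NS2 and EP300 KD2. TIMP1 and ADAM19 are higher and TIMP3 is lower in every shRNA library than in every control, TIMP2 is higher in EP300 KD1 than in the other groups, and MMP7 and ADAMTS9 differ between the controls.

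Of the 6 tested ADAMs, ADAM8 and ADAM19 rose with both hairpins, ADAM10 and ADAM12 rose with the first and fell with the second, ADAM17 fell with the second and ADAM15 was not called. ADAM19, or meltrin beta, is a sheddase with neuregulin among its known substrates. It was at 24, 24.6 and 22.9 CPM in NS1 and 109, 118 and 109 CPM in EP300 KD1. It was at 20.9, 21.2 and 20.4 CPM in NS2 and 47.5, 48.4 and 45.4 CPM in EP300 KD2. Every shRNA library was above every control. ADAM19 rose 4.72-fold (log2 change 2.24 ± 0.0391; adjusted p 2.21e-19) and 2.26-fold (1.18 ± 0.0436; 2.47e-14), with the smaller rise in EP300 KD2 (difference -1.06 ± 0.0599; 4.25e-11).

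ADAM8, a sheddase best known from leukocytes, was at 17.9, 17.8 and 17.7 CPM in NS1 and 41.1, 45.9 and 39.7 CPM in EP300 KD1. It was at 23.6, 21.8 and 22.3 CPM in NS2 and 27.9, 28.3 and 24 CPM in EP300 KD2, where the lowest shRNA library was just above the highest control. The log2 change was 1.25 ± 0.0603 (2.37-fold; adjusted p 1.09e-12) in the first pair and 0.25 ± 0.0619 (1.19-fold; 0.00187) in the second. ADAM12, or meltrin alpha, was at 78.1, 77.9 and 76.8 CPM in NS1 and 148, 139 and 146 CPM in EP300 KD1, a rise of 0.90 ± 0.0299 on the log2 scale (adjusted p 3.97e-15). In NS2 it was at 117, 119 and 116 CPM and in EP300 KD2 at 95.2, 101 and 98.6 CPM, a fall of 0.25 ± 0.0297 (5.67e-07). ADAM12 levels in EP300 KD2 lay between those of the 2 controls, and against both controls pooled the second log2 change was 0.044 (adjusted p 0.148).

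ADAM10 and ADAM17 are the main general sheddases of epithelial cells, with Notch receptors and E-cadherin among the targets of ADAM10 and EGF receptor ligands and TNF among those of ADAM17. ADAM10 was at 127, 131 and 135 CPM in NS1 and 144, 142 and 147 CPM in EP300 KD1, and at 128, 132 and 133 CPM in NS2 and 117, 120 and 122 CPM in EP300 KD2. The groups did not overlap, but the log2 changes were small, 0.14 ± 0.0275 (adjusted p 0.000247) and -0.13 ± 0.028 (0.000566). With library totals in place of TMM scaling the second was -0.061 (adjusted p 0.0599). ADAM17 was at 79.6, 77.1 and 74 CPM in NS1 and 78.4, 77.5 and 79.2 CPM in EP300 KD1 (log2 change 0.03 ± 0.0321; adjusted p 0.445), with overlapping groups. It was at 86.6, 85.8 and 84.4 CPM in NS2 and 64.7, 60.4 and 62.2 CPM in EP300 KD2, a fall of 0.45 ± 0.0326 on the log2 scale (5.04e-10). ADAM17 shares 1257 exon bases with IAH1 on the opposite strand, whose own log2 changes were 0.25 and -0.05.

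Of the 10 tested ADAMTSs, ADAMTS4, ADAMTS6, ADAMTS9 and ADAMTS12 rose with both hairpins, ADAMTS7 and ADAMTS14 fell with both, and ADAMTS15 fell in the first comparison. ADAMTS6 was at 2.48, 2.92 and 2.47 CPM in NS1 and 7.48, 10.9 and 8.25 CPM in EP300 KD1. It was at 1.58, 1.96 and 1.35 CPM in NS2 and 6.68, 6.65 and 7.47 CPM in EP300 KD2, so that all shRNA libraries exceeded all controls. ADAMTS6 rose 3.40-fold (log2 change 1.76 ± 0.138; adjusted p 1.43e-09) and 4.24-fold (2.08 ± 0.152; 6.21e-10), and the difference between the changes did not pass the test (0.32 ± 0.208; 0.218), except without EP300 KD1 replicate 2 (0.495; 0.0292).

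ADAMTS12 was at 1.2, 1.51 and 1.21 CPM in NS1 and 4.27, 4.62 and 4.59 CPM in EP300 KD1. It was at 1.49, 1.53 and 1.6 CPM in NS2 and 2.47, 2.83 and 3.02 CPM in EP300 KD2, with no overlap in either pair. The rise was 3.45-fold (log2 change 1.79 ± 0.125; adjusted p 2.79e-10) and 1.79-fold (0.84 ± 0.129; 1.44e-05). ADAMTS4, an aggrecanase, had 6 counts in NS1, 47 in EP300 KD1, 8 in NS2 and 31 in EP300 KD2, and per library it was at 0.0875, 0 and 0.0662 CPM, 0.513, 0.43 and 0.465 CPM, 0.0632, 0.0903 and 0.0922 CPM, and 0.381, 0.192 and 0.247 CPM in that order. The count ratios were 8.74 (95% interval 3.73 to 25, counting error only; adjusted p 2.3e-05) and 3.41 (1.53 to 8.58; 0.00747). Without EP300 KD2 replicate 1 the second log2 change was 1.374 (adjusted p 0.0563). ADAMTS4 did not pass the filter with only NS2 and EP300 KD2 in the fit, or at a minimum of 1 CPM in 3 libraries. Both of its comparisons were thus tested only because of its level in EP300 KD1, the group in which the first calls it higher.

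ADAMTS9, which cuts versican and aggrecan, differed most between the controls among the members called there. It was at 5.69, 6.79 and 7.08 CPM in NS1, 9.59, 8.34 and 10.4 CPM in EP300 KD1, 1.45, 1.38 and 1.6 CPM in NS2 and 3.31, 2.64 and 3.52 CPM in EP300 KD2. Each shRNA group was above its own control, but EP300 KD2 lay below NS1. ADAMTS9 rose by 0.53 ± 0.109 (adjusted p 0.000302) and 1.09 ± 0.146 (2.97e-06) on the log2 scale, and it was 4.41-fold lower in NS2 than in NS1 (log2 difference -2.14 ± 0.136; 1.59e-09). Against both controls pooled the first log2 change was 1.603 (adjusted p 4.65e-11) and the second 0.019 (0.911).

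ADAMTS14, a procollagen N-proteinase, was at 1.34, 1.29 and 1.06 CPM in NS1 and 0.546, 0.86 and 0.668 CPM in EP300 KD1. It was at 0.853, 1.11 and 0.984 CPM in NS2 and 0.309, 0.33 and 0.432 CPM in EP300 KD2. It fell by 0.81 ± 0.201 (adjusted p 0.00162) and 1.47 ± 0.235 (2.43e-05) on the log2 scale, without overlap in either pair. ADAMTS7, known for cutting cartilage oligomeric matrix protein, fell by 0.41 ± 0.0786 (adjusted p 0.000147) and 0.62 ± 0.0829 (2.63e-06). ADAMTS15 fell by 0.34 ± 0.0718 with the first hairpin (adjusted p 0.00036), with 11, 11.2 and 10.9 CPM in NS1 and 9.24, 8.72 and 8.1 CPM in EP300 KD1. In the second pair its log2 change was -0.13 ± 0.078 (0.174), and against both controls pooled the calls changed places, with 0.039 (0.605) for the first and -0.509 (1.78e-06) for the second. ADAMTS1, ADAMTS13 and ADAMTS17 were called in neither, at group means of at most 0.643 CPM. ADAMTS17 had a log2 change of -1.12 ± 0.539 in the first comparison (0.0766), which passed only without NS1 replicate 3 (-1.418; 0.0354).

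Per transcript length, the order of the members in NS1 began with TIMP1 at 438 CPM per kb, followed by MMP14 at 46.7, TIMP3 at 30.4, ADAM17 at 17.5, TIMP2 at 13.1, ADAM10 at 11.5, ADAM12 at 9.78, ADAM8 at 7.3 and MMP7 at 6.58. In EP300 KD1 the order after TIMP1 (2610) and MMP14 (54.2) was TIMP2 at 28.8, ADAM12 at 18.2, ADAM17 at 17.8, and ADAM8 and ADAM19 at 17.3 each. TIMP3 stood at 8.15 and MMP7 at 0.28 CPM per kb. In EP300 KD2, TIMP1 (1520) and MMP14 (34.5) were followed by ADAM17 at 14.2, ADAM12 at 12.4, TIMP2 at 11.8 and ADAM8 at 11, with TIMP3 at 6.9. MMP14 was thus the most abundant protease per transcript length in each group, and the position of TIMP3 below TIMP2 was seen in both shRNA groups and in neither control.

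**Figure D3:**
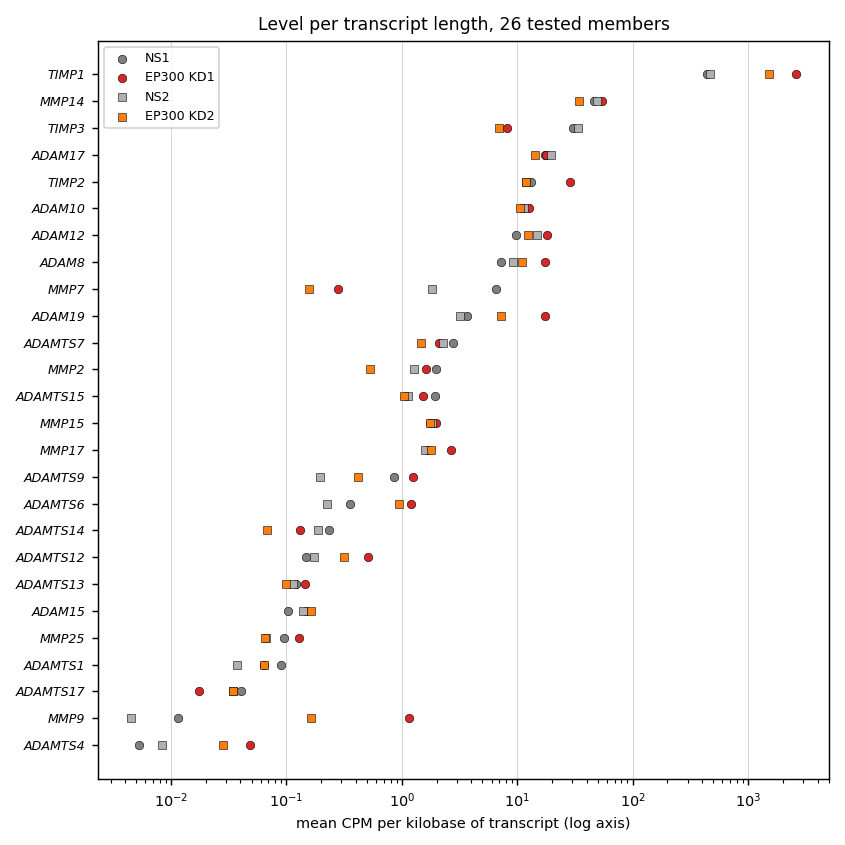
Mean CPM per kilobase of transcript (horizontal log axis) of the 26 tested members in the 4 groups, ordered by the level in NS1; circles are the first pair and squares the second, grey for controls and red or orange for EP300 shRNAs. TIMP1 is the highest in every group, MMP7 moves from 6.58 in NS1 to 0.28 in EP300 KD1, and MMP9 and ADAMTS4 are at the low end in the controls.

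The 17 members with too few counts to be tested were MMP1, MMP3, MMP10, MMP11, MMP12, MMP13, MMP16, MMP19, MMP24, MMP28, TIMP4, ADAM9, ADAM22, ADAM23, ADAMTS5, ADAMTS10 and ADAMTS16. No library held more than 13 counts of any of them. ADAM9, ADAMTS5 and ADAMTS10 were listed at 0 in all 12 libraries, which allows up to 0.0963 CPM in a library (3 counts, counting error only). The 0 of ADAM9 is uncertain, since 4 accession rows stand for it in the table and how reads shared by rows were counted is not stated. ADAM15 (4 rows), MMP19, MMP28 and ADAMTS13 (2 rows each) carry the same uncertainty.

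MMP7 lies at one end of a cluster of 9 MMP genes on chromosome 11 (102520508 to 102955732, GRCh38), and it was the one gene of the cluster with enough counts to be tested. MMP1, or interstitial collagenase, had 5, 10, 5 and 16 counts in NS1, EP300 KD1, NS2 and EP300 KD2. MMP3, or stromelysin 1, had 0, 15, 1 and 7, so that its ratio to NS1 in EP300 KD1 had a lower 95% limit of 4.0 (counting error only), and was 5.58 when NS1 was set to the 3 counts over the group that a count of 0 allows. MMP10 had 10, 14, 4 and 7 counts, MMP13, or collagenase 3, had 19, 10, 13 and 13, and MMP12 had 1 count in EP300 KD1 alone. MMP8 and MMP27 were listed at 0. The neighbours gave no counterpart that could be tested to the fall of MMP7.

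Outside the cluster, MMP11, or stromelysin 3, had 6 counts in NS1 and 25 in EP300 KD1, a ratio of 4.65 (95% interval 1.86 to 13.9, counting error only), and 2 and 4 counts in the second pair (1.76, 0.252 to 19.4). MMP28, or epilysin, had 22 counts in NS1, 6 in EP300 KD1, 21 in NS2 and 1 in EP300 KD2. When rows of low counts were kept in the fit, MMP3 and MMP11 passed the test in the first comparison (adjusted p 0.000198 and 0.0019) and MMP28 in both (log2 change -1.674, 0.0244, and -4.08, 5.93e-05). MMP24 had 7, 13, 5 and 11 counts in the 4 groups, MMP16 7, 10, 9 and 13, and ADAM23 11, 11, 7 and 14.

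The hairpins differed in size for many members. The change with the second hairpin minus that with the first passed the test for 15 of the 26 (57.7%, against 50.8% of all rows), in the negative direction for 12 (background 29.2%) and in the positive for 3 (21.6%). The 3 were MMP7, ADAMTS1 and ADAMTS9, and the count was 1 with DESeq2 and 1 without NS2 replicate 1, EP300 KD2 replicate 1 or EP300 KD2 replicate 3. The median difference was -0.45 for the members and -0.03 over all rows, on the log2 scale. The first of these includes MMP9 and ADAMTS4, kept for their level in EP300 KD1, and is not to be read against the second. The controls also differed from each other: 13 members (50.0%) were called between NS2 and NS1, where 27.5% of all rows were, with 4 higher (15.4%, against 14.2% of all rows) and 9 lower in NS2 (34.6%, against 13.4%). MMP7, ADAMTS1 and ADAMTS9 were lower in NS2 by at least 2-fold (11.5% of the members, 1.19% of all rows, beside 1.3% of all rows in either direction), although the ADAMTS1 call (adjusted p 0.00787 with edgeR, 0.00741 with limma-voom) was lost with DESeq2 (0.058). NS1 and NS2 enter both this comparison and the changes described above.

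Genes that act on metalloproteinases from outside the family were called in each direction, as were all rows. Of 18 tested regulators in a list of 24, 7 were higher (38.9%, beside 32.6% of all rows) and 7 lower (38.9%, 32.3%) in EP300 KD1, with a median log2 change of 0.06. In EP300 KD2, 5 were higher (27.8%, beside 27.9%) and 8 lower (44.4%, 29.9%), with a median of -0.09. LRP1, the endocytic receptor that clears MMPs and TIMP complexes, rose from 41.6 ± 0.733 to 82.1 ± 1.36 CPM with the first hairpin (log2 change 0.98 ± 0.0386; adjusted p 4.61e-14) and fell from 38.5 ± 2.32 to 19.8 ± 0.994 CPM with the second (-0.95 ± 0.0463; 1.47e-12; SD, n = 3 libraries). TSPAN5, a tetraspanin that carries ADAM10 to the cell surface, rose by 1.25 ± 0.0475 and 0.74 ± 0.0465 (2.82e-14 and 7.2e-11). SPOCK1, a matrix proteoglycan, rose by 1.25 ± 0.0363 (5.07e-16) and then fell by 0.16 ± 0.0391 (0.00167), and the tetraspanin CD82 fell by 0.21 ± 0.0299 and 1.15 ± 0.0321 (5.96e-06 and 3.61e-16). A further 3 genes were singled out after their values were seen. RECK, a membrane-anchored inhibitor of MMPs, rose by 1.52 ± 0.1 and 1.28 ± 0.108 (1.22e-10 and 5.06e-09), and TSPAN15, another partner of ADAM10, fell by 1.41 ± 0.0663 and 1.48 ± 0.0694 (6.86e-13 and 9.02e-13). FURIN, the convertase that activates membrane-type MMPs and ADAMs, rose by 0.70 ± 0.0324 and 0.14 ± 0.033 (5.43e-13 and 0.00138).

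**Figure D4:**
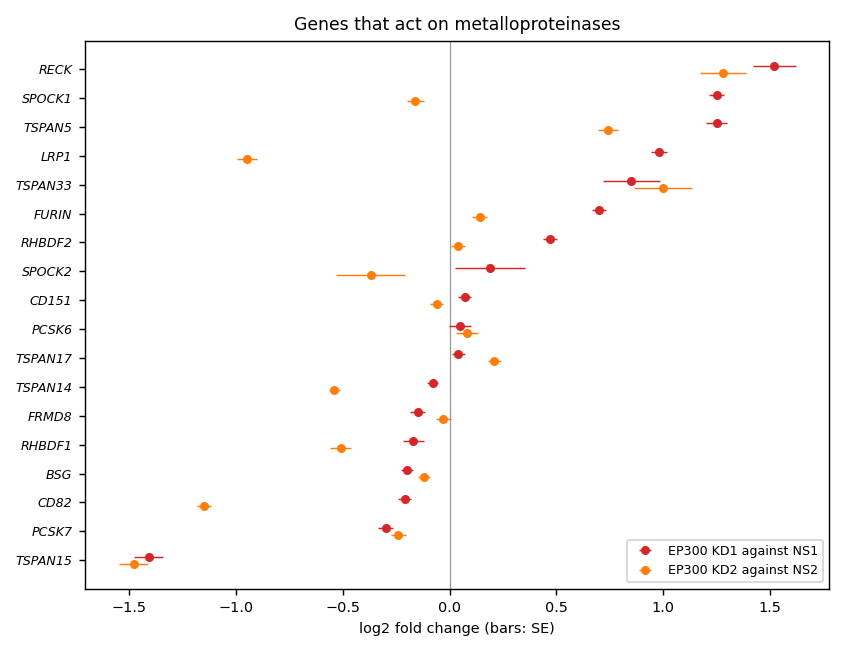
Log2 fold change (horizontal axis, bars for the SE) of the 18 tested regulators of metalloproteinases in EP300 KD1 against NS1 (red) and EP300 KD2 against NS2 (orange), ordered by the first. RECK and TSPAN5 lie to the right of 0 and TSPAN15 to the left with both hairpins, whereas LRP1 and SPOCK1 lie on opposite sides.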

How the data were processed

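The deposited values are whole-number counts per RefSeq transcript row that the authors made by aligning reads with HISAT2 2.1.0 to hg38 and counting with featureCounts, per the submitters' processing notes. The annotation release was not given in the sources used here, nor were the strand setting and the treatment of multi-mapping reads. Libraries were made with a stranded kit, per the labels' protocols. Of 29094 rows, 28134 were named from a RefSeq gene table, 486 from GENCODE and 474 (0.313% of counts) had no symbol. Where a member had several rows, the one with most counts was used. Rows were filtered with filterByExpr, scaled by TMM and tested with edgeR 4.0.16 (glmQLFit, 1 coefficient per group over all 12 libraries, threshold 0.05), in R 4.3.3. SEs were derived from the test statistic, and levels per length used the matched GENCODE transcript. Scripts were tested on simulated data.

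Values per library were given for members called with at least a 2-fold change in 1 of the comparisons and for TIMP1, TIMP2, TIMP3, MMP14, MMP2, MMP9, ADAM10 and ADAM17. The values of ADAM12, MMP17 and ADAMTS15 per library were added after they were seen. From the other lists, the 4 genes with the smallest p in either comparison were named. RECK, TSPAN15 and FURIN, and the cleaved substrates called lower with both hairpins, were added after their values were seen. The members and lists were chosen with earlier results of these data known. Alternatives were other scalings and filters, DESeq2 1.42.0, limma-voom (limma 3.58.1), pooled controls, fits of the 2 groups alone, a replicate block, rows of single-row symbols, and each library left out. Replicates were too different to be one library deposited again (chi-square over its degrees of freedom from 1.863 to 4.538 within groups), so none was merged. Protein sequences were not used here.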

Additional observations from a re-analysis of the deposited data

Results flagged for a closer look

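The change with the second EP300 hairpin minus the change with the first, on the log2 scale, passed the test for 15 members (edgeR, adjusted p under 0.05). The difference was negative for 12 of them. It was -1.15 for ADAM12, -1.14 for TIMP2, -1.06 for ADAM19 and -1.0 for ADAM8. It was -0.96 for MMP2, -0.94 for ADAMTS12, -0.88 for TIMP1 and -0.72 for MMP14. It was -0.54 for MMP17, -0.48 for ADAM17, -0.38 for TIMP3 and -0.27 for ADAM10. For MMP2 and TIMP3 a negative difference means a deeper fall with the second hairpin. For ADAM8, ADAM19, ADAMTS12 and TIMP1 it means a smaller rise.

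The difference was positive for ADAMTS9 (0.56), MMP7 (1.03) and ADAMTS1 (1.26). MMP7 fell less with the second hairpin, from a control that was itself lower. Its adjusted p was 0.0424, with a range of 0.0177 to 0.195 over the alternatives. It missed the threshold with DESeq2 (difference 1.037, 0.0578) and when 1 library was left out: NS1 replicate 1 (0.982, 0.0556), NS2 replicate 1 (0.958, 0.065), EP300 KD1 replicate 1 (0.792, 0.144) or 2 (1.021, 0.0624), and EP300 KD2 replicate 1 (0.858, 0.195), 2 (1.085, 0.0632) or 3 (1.11, 0.0508). ADAMTS1 was called with neither hairpin alone, and its levels were under 1 CPM. Its adjusted p of 0.0268 (0.0186 to 0.127 over the alternatives) missed the threshold with DESeq2 (1.296, 0.127) and without NS1 replicate 2 (1.099, 0.0708), NS2 replicate 1 (1.135, 0.0671) or 2 (1.212, 0.0539), EP300 KD1 replicate 3 (1.115, 0.0668), and EP300 KD2 replicate 1 (1.2, 0.0588) or 3 (1.191, 0.0543).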

How the results depend on the processing

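Over 23 alternatives, 174 of 178 counts of members stayed within 1.5 times of the reported count. The exception was the number of members with a positive difference between the hairpins, which went from 3 to 1 with DESeq2 and ranged from 1 to 3 when 1 library was left out. Leaving out a library that is not in a comparison acts only through the shared filter, scaling and spread. MMP2 with the first hairpin, at -0.288, was at -0.286 without any 1 library of NS2 or EP300 KD2. Such alternatives could hardly differ and add little to this tally or the next. Of 732 log2 changes of the 16 members given in full, 718 kept their direction and side of the threshold, 9 changed sign, 4 lost the call and 1 gained it. Cases in which a member failed the filter are not among the 732 and not counted as lost. These were MMP9 and ADAMTS4 with only NS2 and EP300 KD2 in the fit, and ADAMTS4 in both comparisons at a minimum of 1 CPM in 3 libraries. TIMP2 with the second hairpin, near 0 throughout, was at 0.003 with median-of-ratios factors, 0.039 with upper-quartile factors, 0.057 with library totals, 0.039 without a filter and 0.003 with DESeq2. With 1 library left out it ranged from -0.031 to 0.015, above 0 without NS2 replicate 3 (0.015) and without EP300 KD2 replicate 3 (0.014). Against both controls pooled it was -0.085 (adjusted p 0.0324), MMP2 with the first hairpin was 0.028 and ADAM17 with the first was -0.049. The calls lost were those of MMP2, ADAM10, ADAMTS4 and ADAMTS9 given above. Other scalings moved the median log2 change of all rows by at most 0.069, and the share of higher calls in the second comparison from 48.2% to 58% (upper-quartile) or 61.3% (library totals). With the replicate number as a block, 13 members were higher and 6 lower with the first hairpin and 8 and 9 with the second, as without it. In deviations from group means, same-numbered libraries correlated at 0.106, -0.236 and -0.051 in the first pair and -0.082, -0.02 and 0.03 in the second. Unlike-numbered libraries ranged from -0.242 to 0.218 in the first pair and from -0.083 to 0.1 in the second. Pairing by number was thus not seen between a control and its shRNA group, and a batch shared in other ways was not tested. Depth limits the 17 untested members and the folds of MMP9 and ADAMTS4, whose controls held few counts.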

Other observations

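Genes whose products metalloproteinases cut were also counted, since the list is of the same biology. Of 26 tested in a list of 30, 19 were higher (73.1%, beside 32.6% of all rows) and 6 lower (23.1%, 32.3%) in EP300 KD1, with a median log2 change of 0.56. In EP300 KD2, 9 were higher (34.6%, beside 27.9% of all rows) and 12 lower (46.2%, 29.9%), with a median of -0.07. FN1, fibronectin, rose from 80.5 ± 4.89 to 1150 ± 44.9 CPM (SD, n = 3 libraries) with the first hairpin and from 86.5 ± 5.11 to 389 ± 2.92 CPM with the second (log2 changes 3.84 and 2.17; adjusted p 1.38e-21 and 1.77e-18, edgeR). COL4A1, a chain of type IV collagen, rose by 1.92 and 0.82 on the log2 scale (2.48e-20 and 6.19e-15), and VCAN, the ADAMTS substrate versican, by 1.80 and 1.05 (5.76e-20 and 1.8e-16). AREG, an EGF receptor ligand that ADAM17 sheds, rose by 1.10 with the first hairpin (1.29e-18), and its log2 change with the second was 0 (0.89). These genes were named for the smallest p in the list, and none was called lower. The 6 called lower in EP300 KD1 were also called lower in EP300 KD2. They were HBEGF (log2 changes -1.02 and -1.97), CDH1 (-0.86 and -1.06), ALCAM (-0.69 and -0.56), NOTCH1 (-0.51 and -0.49), HSPG2 (-0.47 and -0.80) and SDC1 (-0.15 and -0.42).

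Of 31 further ADAM, ADAMTS-like and related genes found in the table, 11 were tested. In EP300 KD1, 4 were higher (36.4%, beside 32.6% of all rows) and 2 lower (18.2%, 32.3%), and in EP300 KD2, 2 were higher (18.2%, 27.9%) and 2 lower (18.2%, 29.9%). ADAMTSL4, which has no protease domain, rose from 14.8 ± 0.325 to 44 ± 1.54 CPM in the first pair (adjusted p 3.34e-16) and was at 17 ± 0.804 and 17.7 ± 0.686 CPM in the second (0.286). ADAMTSL3 fell by 2.15 on the log2 scale in the first (5.77e-08), and its change in the second was -0.42 (0.111). THSD4 rose by 0.49 in the first (1.47e-11), with -0.04 (0.211) in the second, and PAPLN fell by 0.60 in the second (0.000198), with -0.18 (0.156) in the first.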
